A study of Homo sapiens with 3 samples.

Results

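PAX5, its upstream neighbour ZCCHC7 and an acetylated domain beyond ZCCHC7 lie in one stretch of chromosome 9, which was examined here in a lymphoma cell line. All intervals that overlap positions 36800000 to 37450000 on hg19 were taken, whatever their values. This gave 81 of 215598 CREBBP peaks and 26 of 18263 regions of histone H3 acetylated at lysine 27 (H3K27ac). The stretch was read in its parts: the PAX5 gene body (36833272 to 37034476, minus strand), the ZCCHC7 gene body (37120536 to 37358146), the distal domain (37368000 to 37425000) and the stretches between and beside them. An interval that crosses the border of a part was counted in both, which touched 1 CREBBP peak and 2 regions. The cells were SC1, a human line labelled as diffuse large B-cell lymphoma (DLBCL), with no genotype or treatment in the labels, and the lists measure no expression by which its cell type could be checked. Peak names in both lists include DMSO and rep2, and no label says what either refers to. The groups were a CREBBP ChIP, an H3K27ac ChIP and an input without antibody, with 1 sample each, and only the ChIP samples had a peak list here. No value therefore has a replicate error, and the comparisons below are descriptions with no test.

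PAX5 is a paired-box transcription factor that commits lymphoid progenitors to the B-cell lineage and keeps mature B cells from losing that identity. It is transcribed from the minus strand, so that its start is its end nearest ZCCHC7. ZCCHC7 encodes a zinc-knuckle protein that works with the nuclear RNA exosome in human cells. The DNA beyond the far end of ZCCHC7 is known as a distal enhancer of PAX5 in B cells, and it is recurrently mutated in B-cell malignancies. CREBBP is a lysine acetyltransferase whose targets include H3K27, and the acetylated residue marks active promoters and enhancers. The lists measure where CREBBP and the mark lay, not the activity of an enhancer or which gene it acts on.

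Promoter sequences of both genes are shown because an H3K27ac region covered the annotated start of each. They are the 250 bases before the start in RefSeq's table for GRCh38.p14, whose positions are not those of hg19. Whether the table's starts are the annotated hg19 starts used elsewhere here was not checked. Motif distances are to the table's starts only, and a window may lie partly inside the gene as annotated on hg19. Capitals mark a motif, searched on both strands. TATAAA is the TATA box, which general transcription factors bind in some promoters. The motif GGGCGG is the site of Sp factors, called the GC box here. The motif CCGGAAG is the core bound by ETS factors. No motif overlapped another.
PAX5, chr9:37034269-37034518, minus strand: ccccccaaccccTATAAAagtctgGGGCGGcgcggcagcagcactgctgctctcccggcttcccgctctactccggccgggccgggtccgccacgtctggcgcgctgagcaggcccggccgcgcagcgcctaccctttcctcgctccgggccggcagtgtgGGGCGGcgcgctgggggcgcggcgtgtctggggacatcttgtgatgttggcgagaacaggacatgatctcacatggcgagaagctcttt
ZCCHC7, the second of 2 starts, chr9:37120324-37120573, plus strand: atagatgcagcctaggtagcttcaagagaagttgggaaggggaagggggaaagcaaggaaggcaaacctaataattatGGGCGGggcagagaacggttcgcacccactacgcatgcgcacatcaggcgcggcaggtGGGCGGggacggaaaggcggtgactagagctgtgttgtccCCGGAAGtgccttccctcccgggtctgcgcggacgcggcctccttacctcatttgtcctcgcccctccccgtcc

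The PAX5 window held TATAAA 238 bases before the table's start and a GC box at 226 and 89 bases before it. In the ZCCHC7 window shown a GC box began 172 and 114 bases before the start, and the ETS core 74 bases before it. The window of the other ZCCHC7 start overlaps it and is not printed. That window had a GC box at 70 and 12 bases before its start, no ETS core and 16 CpG. The second start was shown after the motifs of both were seen. Of 35116 promoter windows of the same length, 10.7% held TATAAA, 42.6% GGGCGG and 8.52% CCGGAAG. A cAMP response element (TGACGTCA, in 1.65% of windows) and an E box (CACGTG, in 6.34%) were searched too, and neither was in these windows. PAX5 was rich in CpG, with 27 CpG against 18 in the ZCCHC7 window shown and a median of 11 over all windows. These matches are letters in a window and show no binding.

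H3K27ac regions lay in blocks, with long stretches free of regions between them. The 26 H3K27ac regions covered 135 kb, or 20.8% of the stretch, against 1.12% of the chromosomes over the rest of the series. Widths ran from 316 bp to 20515 bp with a median of 2292.5 bp, against a median of 1423 bp in the whole list. The authors' fold enrichment, a mean over each region, had a median of 4.59, against 4.92 in the whole list. Of the 26 regions, 12 were above the list's median fold and 15 above its median width. Regions of 10 kb or more numbered 6 of 26, or 6 of the 12 on chromosome 9, where such regions were 0.772% of the whole list. When chromosomes 1 to 22 and X were cut into 4658 tiles of the same 650 kb, no tile had more covered length, the highest being 114 kb and the median 2.61 kb. The stretch was placed with its acetylated domain in view and the tiles were not, which favours the stretch in this ranking. By number, 18 tiles had more H3K27ac regions, 292 had more CREBBP peaks and 10 had more CREBBP peaks of q at most 0.05. The mark was unevenly shared. ZCCHC7 held 43.4% of the covered length, the distal domain 32.3%, the PAX5 gene body 17.7% and the DNA between the genes 6.62%. The 33.3 kb beyond the end of PAX5 and the 25 kb beyond the distal domain held no region.

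**Figure D1:**
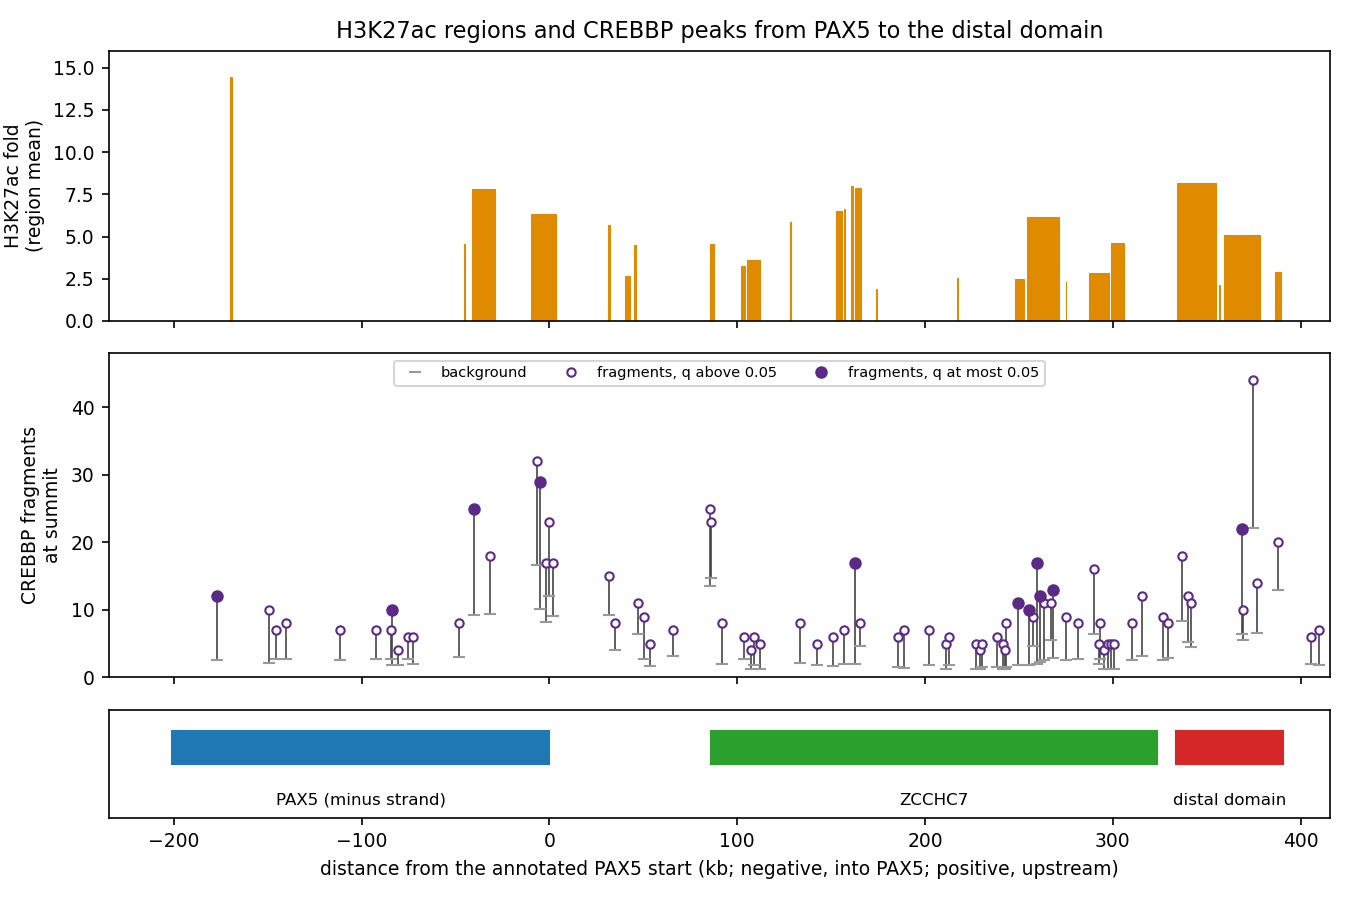
H3K27ac regions (bars, height is the authors' mean fold of the region), CREBBP fragments at each peak's summit (points, with a dash at the background and a line between them) and the gene bodies, against distance from the annotated PAX5 start in kb. Acetylation stands in blocks at the PAX5 start, in the far part of ZCCHC7 and in the distal domain, and the highest fold, 14.4, is a narrow bar deep in PAX5.

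CREBBP peaks were read through 2 numbers. Fold in the deposited list is enrichment at the peak's summit, and together with the p-value it gave a whole number of fragments and the background expected there for all 81 peaks. These are inferences from the deposited values. The background is the peak caller's estimate, and the library it came from is not given in the sources used here. A high fold can mean many fragments or a low background. Over the stretch, peaks had a median of 8 fragments at the summit (range 4 to 44) over a median background of 2.61 fragments, against 5 fragments over 1.3 in the whole list. Of the 81, 11 passed a q of 0.05, or 13.6% (exact Clopper-Pearson 95% interval 6.98 to 23%), where 1.81% of all CREBBP peaks passed it. The weakest of the 11 had a −log10 q of 1.53, and the next peak below them had 1.24. The list keeps peaks down to a p of 0.05, and 49 of the 81 had a −log10 q of 0. That is 60.5%, against 80.7% of all CREBBP peaks. Most single peaks are thus weak on their own, in the stretch and still more in the whole list.

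Inside H3K27ac regions lay 40 of the 81 CREBBP peaks, 49.4% (38.1 to 60.7%), sharing at least 1 bp. The background share over all peaks was 5.06%. Among the 11 that passed a q of 0.05, 9 lay inside, where 56.5% of all such peaks did. The share was set beside the length covered. Per covered kb there were 0.296 CREBBP peaks (exact Poisson 95% interval 0.212 to 0.403), against 0.319 over the whole list. Per kb outside the regions there were 0.0796, against 0.0682. Per kb of acetylated DNA the interval of the stretch thus includes the value of the whole list, whose regions have a lower median width. Among regions of 10 kb or more, the median was 0.287 per kb in the 6 of the stretch (range 0.146 to 0.467) and 0.205 in all 141. The larger share inside stands beside a larger acetylated share of the DNA, and whether it goes beyond that was not tested. All intervals in these sentences cover counting error only.

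The start of PAX5 lay within a wide acetylated region. This region spanned 13.6 kb (37024428 to 37038034), from 3.56 kb upstream of the annotated start to 10.0 kb into the gene, and had a fold of 6.36. It was 57th of 18263 regions by width. It held 5 CREBBP peaks, with 32, 29, 17, 23 and 17 fragments in order towards the upstream side. The fourth, at 37034324 to 37035026, covered the annotated start, with its summit 45 bp inside the gene. Its 23 fragments stood over a background of 12.01, so that its fold was 1.84 and its −log10 q only 0.029. The peak with 32 fragments, 6.79 kb into the gene, stood over 16.6 and had a fold of 1.87. One of the 5 passed a q of 0.05, at 37029187 to 37029628 and 5.06 kb into the gene, with 29 fragments (exact Poisson 95% interval 19.4 to 41.6), a background of 10.2 and a fold of 2.69. CREBBP fragments at the PAX5 start were thus many, and the background was high as well.

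Further into PAX5 a second wide region of 12.2 kb (36993462 to 37005640) had a fold of 7.80. It held 2 CREBBP peaks. The peak at 36993775 to 36994413, with its summit 40.4 kb into the gene, had 25 fragments over 9.24, a fold of 2.54 and a −log10 q of 1.53. The peak at 37002363 to 37002967, 31.8 kb into the gene, had 18 fragments over 9.39 and a −log10 q of 0. A small region of 320 bp and fold 4.55 lay 45.2 kb into the gene with no CREBBP peak.

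Beyond these regions the PAX5 body held 1 more H3K27ac region. The gene was split at the end of its longest stretch without a region, so the coverage of the sides, and how many peaks lay inside regions on each, follow in large part from the split. On the start side of 36989096, 45.4 kb of the gene was 49.7% covered by 3 regions. On the other side, 156 kb was 0.859% covered by 1 region, near the 1.12% covered over the rest of the series. CREBBP peaks lay on both sides, 6 on the start side and 12 on the other. Their fragments and backgrounds did not overlap. Their folds did, at 1.83 to 2.69 on the start side and 1.76 to 3.86 on the other. In the whole list, median fragments were 16 inside regions and 5 outside. Inside regions lay 81.3% of its peaks of 15 to 19 fragments, 93.2% of those of 20 to 29 and 79.2% of those of 30 or more. Of its peaks of 10 to 14 fragments 39.0% lay inside, and of those of 7 to 9, 5.55%. As the split also sorted the peaks into inside and outside, nothing is read from the lack of overlap. The 6 had 17 to 32 fragments over backgrounds of 8.16 to 16.6 and all lay inside regions. The 12 had 4 to 12 fragments over backgrounds of 1.85 to 3.09 and all lay outside. Of these 12, 2 still passed a q of 0.05. One, at 36950464 to 36950932 and 83.9 kb into the gene, had 10 fragments over 1.85 and a fold of 3.86. The other, at 36857320 to 36857712 and 177 kb into the gene, had 12 over 2.63 and a fold of 3.58. The single region on that side was 1339 bp wide (36864275 to 36865613) and lay 170 kb into the gene. Its H3K27ac fold of 14.4 was the highest in the stretch and 1101st of 18263 in the list. It held no CREBBP peak, and the nearest one in the gene was 6.56 kb away. Between it and the small region, 123 kb of PAX5 had no H3K27ac region and 11 CREBBP peaks, with a median of 7 fragments.

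**Figure D2:**
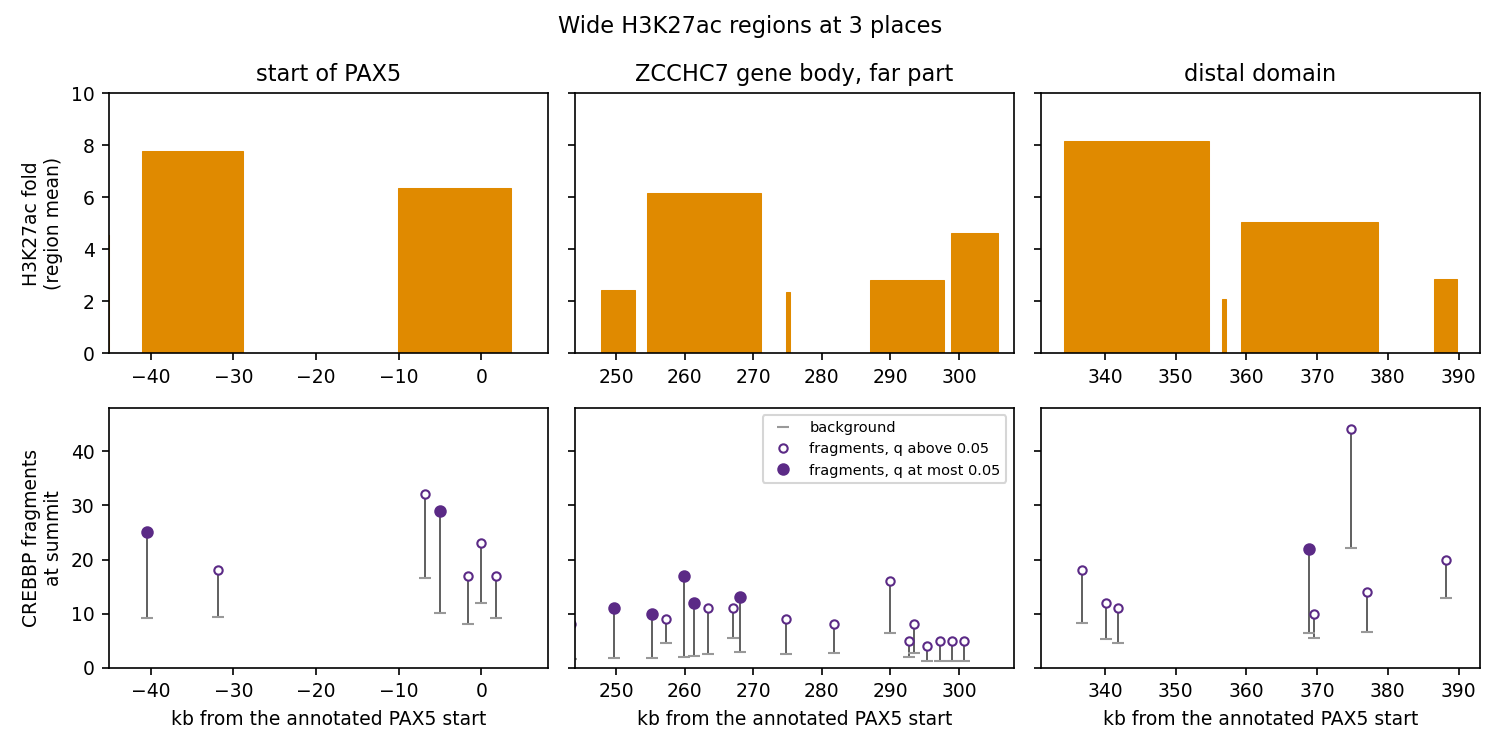
The same tracks at the start of PAX5, in the far part of ZCCHC7 and in the distal domain, against distance from the annotated PAX5 start in kb. Points are CREBBP fragments, dashes their background, filled where q is at most 0.05. Backgrounds (dashes) reach 16.6 at PAX5 and 22.2 in the distal domain, and in ZCCHC7 the peaks of q at most 0.05 have 10 to 17 fragments over backgrounds of 1.85 to 2.91.

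Of the 86.1 kb between the starts of PAX5 and ZCCHC7, 10.4% was covered, counting the parts of the regions over the starts. Over the rest of the series 1.12% was. Outside the regions over the starts this DNA held 3 regions, which covered 4.78 kb. They were of 1013, 2360 and 1408 bp, with folds of 5.66, 2.66 and 4.50. The first of the 3 held a CREBBP peak of 15 fragments over 9.24, and the others held none. No CREBBP peak between the genes had a q of at most 0.05. On the gene order of GRCh38.p14, RPL32P21, EBLN3P and LOC105376034 lie between PAX5 and ZCCHC7. Whether any of these regions lies at one of their starts was not determined. The start of ZCCHC7 was covered by a region of 2225 bp (37119933 to 37122157) and fold 4.54. It held 2 CREBBP peaks, 1 on each side of the annotated start, and neither covered it. The one upstream, at 37119818 to 37120231, had 25 fragments over 13.5, and the one downstream, at 37120693 to 37121331, had 23 over 14.8. Their folds were 1.79 and 1.52, and their −log10 q was 0. The peak over the PAX5 start had 23 fragments over 12.01, and the acetylated region there was 13607 bp wide, against 2225 bp at the ZCCHC7 start.

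The body of ZCCHC7 was acetylated in separate clusters. It held 15 of the 26 regions, which covered 58.7 kb or 24.7% of its 238 kb, and 43 of the 81 CREBBP peaks. Of these 43, 23 lay inside a region, 53.5% (exact Clopper-Pearson 95% interval 37.7 to 68.8%), and 6 had a q of at most 0.05. All 6 were among the 23. Of the 15 regions, 1 was at the start of the gene.

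The largest cluster lay in the far part of the gene. Regions within 12500 bp of each other were joined into domains, and 5 regions from 37282308 to 37340229 made a domain of 39.7 kb covered over 57.9 kb. By covered length it was 11th of 13232 domains, and by span 31st. Joined within 25 kb, it was 25th of 10744 by covered length. With a joining distance of 5 kb it came apart into domains of 22.1 and 17.6 kb. Its widest region, 16.7 kb (37288921 to 37305608) with a fold of 6.16, held 7 CREBBP peaks, the most of any region of the stretch. In order away from PAX5 they had 10, 9, 17, 12, 11, 11 and 13 fragments. The strongest, at 37294136 to 37294492, had 17 fragments (exact Poisson 95% interval 9.90 to 27.2) over a background of 2.04, a fold of 5.92 and a −log10 q of 6.62. It was 70th of 215598 CREBBP peaks by fold. Beside it, the peaks at 37289161, 37295712 and 37302292 passed a q of 0.05 too, with folds of 3.86, 4.03 and 3.58. The neighbouring region of 4895 bp (37282308 to 37287202) had an H3K27ac fold of only 2.46. Its CREBBP peak, at 37283960 to 37284828, had 11 fragments over 1.85, a fold of 4.21 and a −log10 q of 2.25. A region of 468 bp and fold 2.35 (37309304 to 37309771) met a CREBBP peak of 9 fragments, whose summit lay 21 bp outside it.

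The remaining regions of this domain were wide, with a fold below the list's median of 4.92. A region of 10.7 kb (37321561 to 37332266) had a fold of 2.84, higher than that of 20.3% of all regions, and it held 5 CREBBP peaks of 16, 5, 8, 4 and 5 fragments. The next, 6903 bp with a fold of 4.63, held 2 peaks of 5 fragments each. None of these 7 had a q of at most 0.05. Of the 7, 4 stood at the commonest background of the list, 1.3 fragments. Of the 10 peaks of the stretch at that background, 6 lay inside an H3K27ac region, against 0.233% of such peaks in the whole list. This share stands beside a covered 20.8% of the stretch, against 1.12% over the rest of the series. At the other backgrounds too the share inside was above the list's. It was 9 of 26 against 5.66% at 2 to 3 fragments, and 12 of 13 against 75.3% at 5 to 10. Whether the share at the commonest background goes beyond the coverage was not tested.

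A smaller cluster lay nearer the start of ZCCHC7, where 5 regions from 37187196 to 37208670 covered 7.66 kb. Their folds were 6.49, 6.65, 7.97, 7.89 and 1.87. This cluster had the CREBBP peak with the largest fold of the stretch, at 37197059 to 37197741. It had 17 fragments over 2.02, a fold of 5.97 and a −log10 q of 6.70, which made it 68th by fold and 485th by q in the list. Its summit, 76.7 kb from the annotated ZCCHC7 start, was not in a called H3K27ac region, though the peak counts as inside by its overlap. The summit lay 173 bp outside the region of 2683 bp that the peak overlaps, in the gap before it. Closer to the start, a pair of regions of 1932 and 6921 bp with folds of 3.26 and 3.58 held 4 CREBBP peaks of 4 to 6 fragments. Single regions of 561 and 316 bp, with folds of 5.83 and 2.57, held none. The longest part of ZCCHC7 without an H3K27ac region, 42.8 kb from 37208671 to 37251492, had 5 CREBBP peaks of at most 7 fragments.

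**Figure D3:**
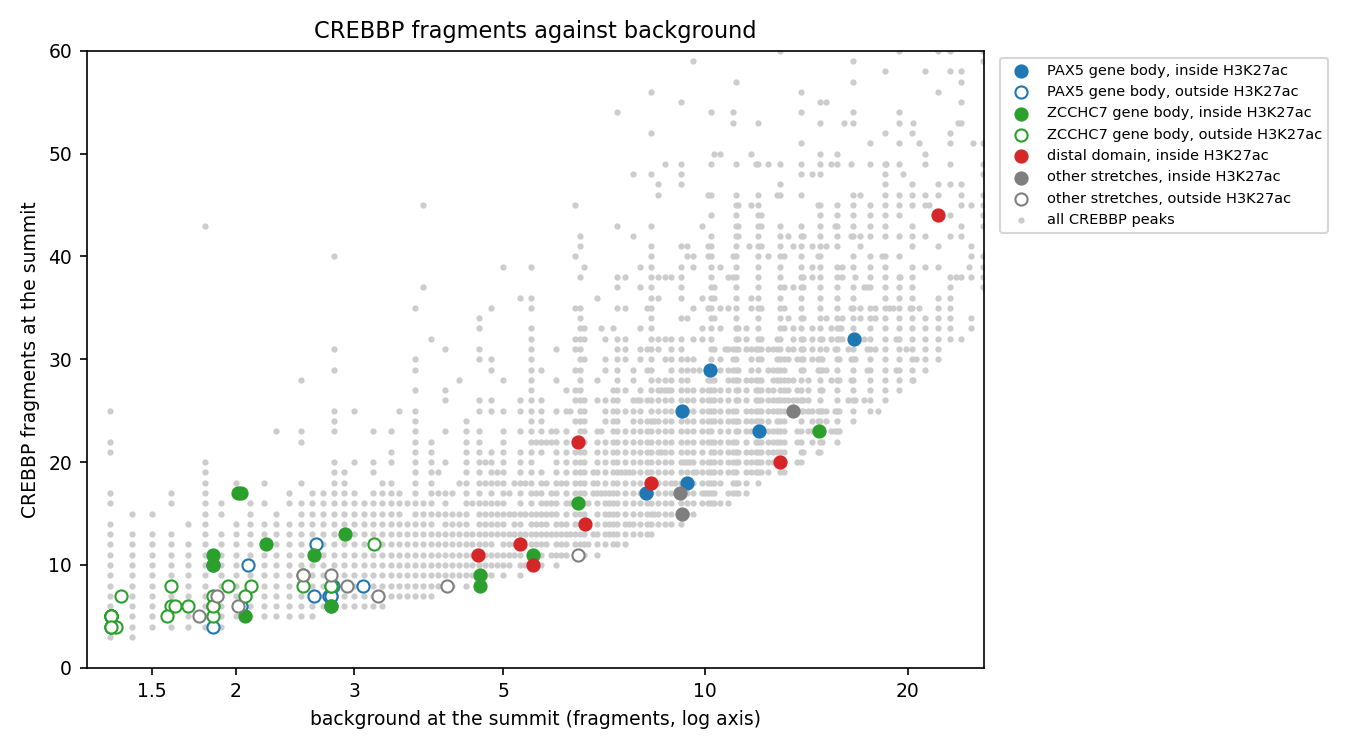
CREBBP fragments at the summit against the background there (log axis) for the peaks of the stretch (coloured by part, filled inside H3K27ac) over all CREBBP peaks of up to 60 fragments (grey). Peaks of PAX5 inside regions have 17 to 32 fragments over 8.16 to 16.6, and the ZCCHC7 peaks of largest fold have 17 over 2.02 and 2.04.

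The distal domain held 4 regions, which covered 43.6 kb, or 76.5% of its 57.0 kb. Its borders were drawn close around these regions, so this share follows from how it was drawn. In covered length it came after ZCCHC7, which had 58.7 kb. Joined, they ran from 37368726 to 37424281 and were 6th of 13232 domains by covered length and 38th by span. With a joining distance of 25 kb they were 13th of 10744 by covered length. The domain began 334 kb upstream of the annotated PAX5 start and 9.85 kb beyond the end of ZCCHC7. On the gene order of GRCh38.p14 the next protein-coding gene after ZCCHC7 is GRHPR, a glyoxylate and hydroxypyruvate reductase, whose position on hg19 was not analysed here. The first region spanned 20.5 kb (37368726 to 37389240) with a fold of 8.16. It was the widest H3K27ac region of chromosome 9 and 14th of 18263. The third spanned 19.3 kb (37393749 to 37413030) with a fold of 5.07 and was 17th by width. Between them lay a region of 527 bp and fold 2.11, and at the far edge one of 3284 bp (37420998 to 37424281) and fold 2.88. With a joining distance of 5 kb this last region stood alone, apart from the other 3. Whether it lies at the start of GRHPR was not determined, so its place in the PAX5 enhancer is not known here.

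All 8 CREBBP peaks of the distal domain lay inside its regions. With 76.5% of the domain covered by the way it was drawn, nothing is read from this count. The widest region held 3, at 2.58, 5.90 and 7.56 kb from the edge nearest PAX5, with 18, 12 and 11 fragments over 8.31, 5.29 and 4.58. Their −log10 q was 0.14 for the first and 0 for the others. The third region held 4, with 22, 10, 44 and 14 fragments. The peak with 44 (exact Poisson 95% interval 32.0 to 59.1), at 37409053 to 37409607, had the most fragments of the stretch and was 448th of 215598. It stood over a background of 22.2, so that its fold was 1.94 and its −log10 q 1.2, short of 0.05. One peak of the domain passed a q of 0.05, at 37402952 to 37403457, with 22 fragments (13.8 to 33.3) over 6.47, a fold of 3.08 and a −log10 q of 2.44. The region at the far edge held 1 peak, of 20 fragments over 12.9 and a fold of 1.51. Between the peaks at 37376440 and 37402952 lay 26.5 kb with no CREBBP peak, and it took in the end of the first wide region, the start of the next and the small one between.

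**Figure D4:**
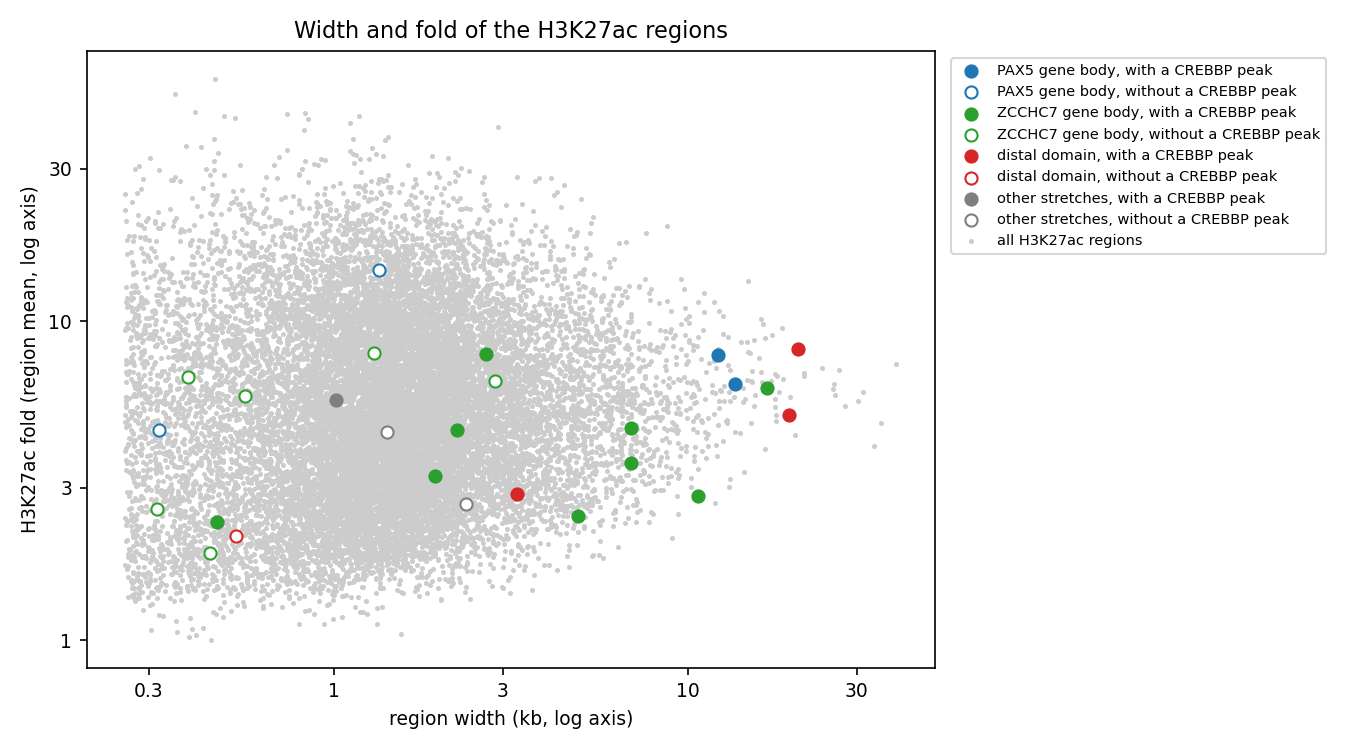
Width of each H3K27ac region (kb, log axis) against its fold (mean over the region, log axis), for the regions of the stretch (coloured by part, filled where a CREBBP peak lies in them) over the whole list (grey). The 6 regions of 10 kb or more have folds of 2.84 to 8.16 and each holds a CREBBP peak.

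Wide regions and CREBBP peaks were then set against the whole list. Of the 26 regions, 15 held a CREBBP peak, 57.7% (exact Clopper-Pearson 95% interval 36.9 to 76.6%), near the 49.0% of all regions. A CREBBP peak of q at most 0.05 lay in 6 of the 26, where 11.4% of all regions held one. The first count was set beside the widest decile, and both beside regions of 10 kb or more. For narrower regions the count with q at most 0.05 was not matched by width. The 6 of 26 as a whole are thus not set against regions of like width. All 9 regions of the widest decile held a CREBBP peak, where 84.6% of that decile did in the list. All 6 regions of 10 kb or more held one, where 96.5% of such regions did, and 4 of the 6 held one of q at most 0.05, where 52.5% did. These shares are close to the background for regions of that width. The number of peaks per kb varied among the 6. It was 0.467 and 0.419 in the ZCCHC7 regions of 10.7 and 16.7 kb, 0.367 at the PAX5 start and 0.164 in the other PAX5 region. It was 0.146 and 0.207 in the distal regions of 20.5 and 19.3 kb. The median over all 141 regions of that width was 0.205, with quartiles of 0.147 and 0.294. By part, peaks inside regions per covered kb were 0.392 in ZCCHC7 (exact Poisson 95% interval 0.249 to 0.588), 0.251 in PAX5 (0.0922 to 0.547) and 0.183 in the distal domain (0.0792 to 0.361). These intervals overlap, and each includes the 0.319 of the whole list.

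The order of the parts turned on which number was read. The 5 CREBBP peaks with the most fragments were 1 in the distal domain (44), 3 in PAX5 (32, 29 and 25) and 1 before the ZCCHC7 start (25). The largest folds were 4 in ZCCHC7, at 5.97, 5.92, 4.21 and 4.03, and then a tie at 3.86 between a peak in ZCCHC7 and one in PAX5. No peak was in both sets. Inside regions, median fragments were 24 in PAX5, 16 in the distal domain and 9 in ZCCHC7, while median backgrounds were 9.78, 6.54 and 2.06. The background moved with the fragments from part to part, and its part in the difference was not tested.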

How the data were processed

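Chromatin of SC1 cells was used for CREBBP and H3K27ac ChIP-seq. The tools named, per the submitters' processing notes, are MACS2, Bowtie2, STAR and fastp, and the build is hg19. Which library served as control is not stated there. The authors deposited a narrow CREBBP list and a broad H3K27ac list. Each deposited list gives fold enrichment (a ratio to expected background), −log10 p, −log10 q and a score. These values served to describe, rank and filter intervals within a list. Intervals on chromosomes other than 1 to 22 and X were left out. Positions count from 1.

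A peak was inside a region when they shared 1 bp. Fragments n and background b solve fold = (n + 1)/(b + 1) with p the Poisson probability of more than n. Within 0.001 of −log10 p this held for 215580 peaks, and it returned 2000 of 2000 peaks simulated from that formula. Library depth is unknown. Intervals on the fragments of single peaks cover counting error only. They make no allowance for reading fragments at a summit, or for choosing a peak by its value. The rule for named intervals took regions of joined domains, the 5 widest regions, those at gene starts, the 5 CREBBP peaks with most fragments, the 5 of largest fold, all CREBBP peaks that passed a q of 0.05, and the widest region and highest peak per part. Others were chosen after their values were seen. Members, parts and lists were chosen with earlier results of these data known. No test was made, as each group held 1 sample. Software was scipy 1.17.1, pandas 2.3.3 and numpy 2.4.6 under Python 3.11.15.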

Additional observations from a re-analysis of the deposited data

How the results depend on the processing

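Keeping the 50% of H3K27ac regions with the lowest q left 13 regions, with 33.3% of CREBBP peaks inside, and the widest domain then covered 39.8 kb. With CREBBP peaks of q at most 0.05, 11 peaks remained, 81.8% of them lay inside and 23.1% of regions held one. Joining within 5 kb gave a widest domain of 40.3 kb, and the widest stayed the distal one. The strongest peak had 44 fragments when ranked by fragments, and 17 when ranked by fold or by q, where it was another peak, in ZCCHC7. The other settings were overlap of 50%, summit alone, parts by midpoint, upper 50% of CREBBP peaks by p, and joining within 25 kb. They left each of these values within its interval, or within 1.5 times where it had no interval. Of 45 values by part over all settings, 36 stayed within these limits and 9 moved further. No paired analysis was possible because there was 1 sample per group.

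Library depth is unknown, and with 4 to 44 fragments at a summit many weak peaks cannot be told from background. Regions hold a mean fold, so structure within a wide region was not seen. Peak names, fold and background rest on 1 library of each kind. Gene names beyond PAX5 and ZCCHC7 come from another assembly and were not placed on hg19.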
